A study of Mus musculus with 39 samples.

Results

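The 34 imprinted genes described here were taken by symbol from the deposited count matrices, and all 34 were found among the 47643 genes of each matrix. By what is known of them in mouse, 21 are expressed from the paternal allele, 10 from the maternal allele, and 3 (*Grb10*, *Gnas* and *Ube3a*) from an allele that varies with tissue or transcript. The counts do not separate the parental alleles, so every value below is the sum over both. The study compared *Stat3* null with wild-type (WT) mouse embryos on a CD1 background. It asked how loss of STAT3, a transcription factor that relays cytokine signals, alters the epiblast, the tissue from which the body forms, after implantation. Both genotypes came from crosses of *Stat3* heterozygous mice, and in null embryos a neomycin resistance cassette replaces some of the exons of *Stat3*, whose other exons are still counted. Each of 35 libraries held 1 epiblast cut free by hand from its extraembryonic layers: at E5.5 there were 4 null and 2 WT epiblasts, at E6.5 8 null and 9 WT, and at E7.5 3 null and 9 WT. In addition, 2 *Stat3* null EpiSC lines (2 and 6) and 2 WT lines (8 and 13) were read. EpiSCs are pluripotent lines derived from the epiblast, grown here on fibronectin with FGF2, Activin A and the tankyrase inhibitor XAV-939, and each line is a single derivation.

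Genomic imprinting marks the parental copies of a gene differently in egg and sperm, by DNA methylation at imprinting control regions, so that mainly one copy is transcribed. Many imprinted genes govern the growth of embryo and placenta: paternally expressed genes such as *Igf2*, a growth factor, mostly promote growth, and maternally expressed genes such as *Cdkn1c*, a cyclin-dependent kinase inhibitor, *Phlda2* and *Igf2r*, the receptor that clears IGF2, mostly restrain it. They lie in clusters: *Igf2* and the noncoding RNA *H19* on chromosome 7 share an enhancer, *Cdkn1c*, *Phlda2*, *Slc22a18* and *Osbpl5* lie near the noncoding RNA *Kcnq1ot1*, and *Dlk1*, *Rtl1*, *Meg3*, *Rian* and *Mirg* form a cluster on chromosome 12.

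A few sequences, from RefSeq tables on GRCm38.p6, belong to genes on which the results turn. Capitals mark CG dinucleotides, the letters that carry DNA methylation. *Peg3*, a zinc finger gene, and *Usp29*, a deubiquitinase gene, are read in opposite directions from start sites that face each other, and the stretch of 146 bases between their annotated starts (chr7:6730432-6730577, plus strand) holds 5 CG. It is shown because both genes rose together at E7.5. For *Nnat*, which encodes the membrane proteolipid neuronatin, and *Magel2*, which encodes a ubiquitin ligase regulator, the 250 bases before the first base are shown (chr2:157559828-157560077 and chr7:62376729-62376978, plus strand), because these genes passed the test in more than one comparison.
Peg3-Usp29: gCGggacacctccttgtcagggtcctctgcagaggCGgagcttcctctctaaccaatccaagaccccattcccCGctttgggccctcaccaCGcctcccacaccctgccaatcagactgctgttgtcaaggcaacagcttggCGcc
Nnat: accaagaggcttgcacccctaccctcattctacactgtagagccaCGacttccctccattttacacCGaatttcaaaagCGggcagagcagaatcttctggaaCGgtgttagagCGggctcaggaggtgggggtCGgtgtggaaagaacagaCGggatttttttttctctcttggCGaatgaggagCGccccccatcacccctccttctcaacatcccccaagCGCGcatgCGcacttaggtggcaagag
Magel2: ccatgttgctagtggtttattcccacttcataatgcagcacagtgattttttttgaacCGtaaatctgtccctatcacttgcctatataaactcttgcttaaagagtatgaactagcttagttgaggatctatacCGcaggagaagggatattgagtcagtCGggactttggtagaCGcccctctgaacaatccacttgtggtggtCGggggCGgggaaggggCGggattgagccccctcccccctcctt

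*H19* also holds the hairpin of miR-675, whose mature forms are printed with the seed (bases 2 to 8) in capitals. They lie on the minus strand at chr7:142577112-142577133 and chr7:142577078-142577099, inside an RNA whose own counts are given below, and the mature miRNAs were not measured.
mmu-miR-675-5p: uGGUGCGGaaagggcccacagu
mmu-miR-675-3p: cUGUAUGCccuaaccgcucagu

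Of the 34 genes, 27 had a start site in these tables, with 44 windows of 250 bases between them. CG dinucleotides numbered 0 to 40 per window, with a median of 9 against 6 over all 32851 windows. The hexamer TGCCGC, the core of the motif bound by the imprint-protecting protein ZFP57, was found on either strand in windows of 7 of the 27 genes (*Mcts2*, *Mest*, *Nap1l5*, *Zim1*, *Osbpl5*, *Plagl1* and *Meg3*), in 8 of the 44 windows, and 8.68% of all windows hold it. The STAT motif TTCNNNGAA, which reads the same on both strands, was found in 2 of the 44 windows, of *Osbpl5* and *Rian*, and 7.02% of all windows hold it. No window of these genes held both motifs. *H19*, *Rtl1*, *Peg10*, *Sgce*, *Cdkn1c*, *Impact* and *Peg13* had no window.

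Levels are given as CPM, the counts of a gene per unit of library size after TMM scaling, and levels are compared between genes only per kilobase of merged exons. Total counts per library ranged from 22941210 to 38635127 at E5.5, from 27913392 to 79013960 at E6.5, from 25793920 to 41655234 at E7.5 and from 63445877 to 127583699 in EpiSCs. *Stat3* was at 13.6 ± 5.85 CPM (SD, n = 9) in WT and 1.34 ± 0.14 CPM (n = 3) in null epiblasts at E7.5, and the groups did not overlap; at E6.5 it was 13.3 ± 7.19 CPM (n = 9) and 4.37 ± 2.50 CPM (n = 8), with overlap. The epiblast markers fixed for the label check were present in every epiblast group, but 4 libraries stood apart: E5.5 null 1 had 4 of 8 epiblast markers at 0 and 813 CPM summed over 10 extraembryonic ectoderm markers, E6.5 null 1 had 671 CPM of the same list, E6.5 WT 3 had 6125 CPM summed over 12 visceral endoderm markers, and E7.5 WT 3 had 1537 CPM of epiblast and 27.2 CPM of mesoderm markers, against 306.4 to 659.4 and 556.7 to 800.2 CPM in the other 8 E7.5 WT libraries. The visceral endoderm list, named for the outer layer that the dissection was meant to remove, summed to 6339 to 12450 CPM in 5 of 6 E5.5 libraries, 90.1 to 7387 CPM at E6.5 and 71.4 to 4615 CPM at E7.5, and to 8.32 to 14.7 CPM in EpiSCs. E6.5 null 3, 4 and 8, at 7387, 5000 and 4520 CPM of that list, were not among the 4 libraries that stood apart. Leaving out those 4 therefore does not remove every library high in these markers.

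Per kilobase, *H19* had the highest group mean of the 34 genes in both E5.5 groups, in E6.5 null and in E7.5 WT epiblasts, with 431.5 CPM per kilobase in E7.5 WT and 1132 in E5.5 null. In E6.5 WT its mean was 110.8 CPM per kilobase against 102.7 for *Snrpn*, but without WT 3 *Snrpn* came first (108.5 against 73.85), as it did by the median over the 9 libraries (109.1 against 66.63). In E7.5 null epiblasts it came after *Snrpn* (108.2 CPM per kilobase), which encodes a splicing protein, and *Grb10* (66.97), an adaptor that dampens insulin and IGF signalling, at 49.39. In both EpiSC groups *Snrpn* was first, followed by *Grb10*. *Slc22a18*, a transporter gene, had group means from 0 to 0.53 CPM per kilobase in epiblasts and no counts in the null libraries of E5.5 or E7.5.

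**Figure D1:**
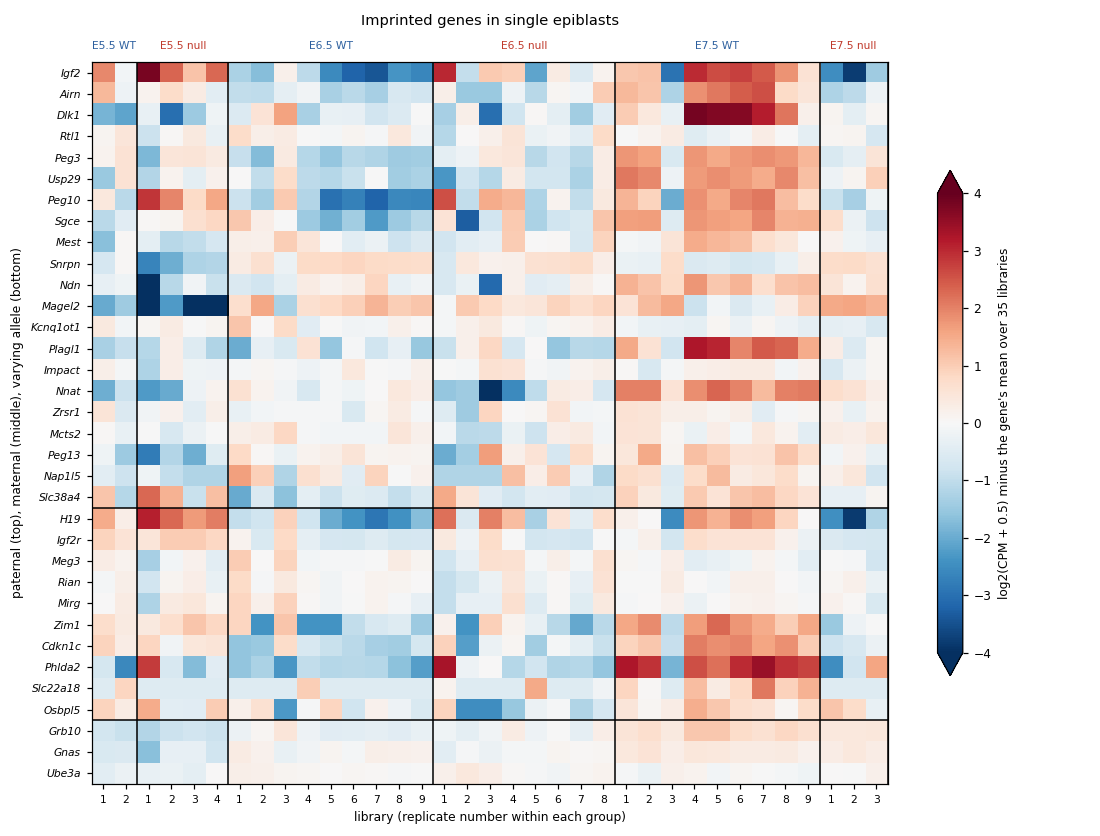
Heat map of the 34 imprinted genes (rows, by parental allele) in the 35 epiblast libraries (columns, by group), each cell the log2(CPM + 0.5) minus that gene's mean over the libraries. *Peg3*, *Usp29*, *Sgce*, *Nnat*, *Cdkn1c* and *Phlda2* are red in every E7.5 WT library but WT 3, where *Nnat* alone of these is above its mean, and *Magel2* is blue in all 6 E5.5 libraries.

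Between E6.5 and E7.5, WT epiblasts gained expression of many imprinted genes. In these, 14 of the 33 genes tested rose and none fell, against 8.83% of 17191 genes called in either direction and 5.74% called higher (*Slc22a18* was too low to be tested). A call needed a log2 fold change beyond 1 in size and an adjusted p under 0.05 (edgeR, quasi-likelihood, adjusted over all genes by Benjamini-Hochberg). The genes that rose were 11 paternally expressed (*Igf2*, *Airn*, *Dlk1*, *Peg3*, *Usp29*, *Peg10*, *Sgce*, *Ndn*, *Plagl1*, *Nnat* and *Slc38a4*) and 3 maternally expressed (*H19*, *Cdkn1c* and *Phlda2*). The median log2 fold change was 0.79 over the 33 genes and 0.0066 over all genes tested. No gene of the 34 separated the groups fully, against 2.38% of all genes. For every gene described next, the lowest E7.5 library was WT 3, except *Ndn*.

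The largest change was in *Phlda2*, which encodes a small protein that limits placental growth. It ranged from 1.91 to 5.68 CPM with a median of 4.52 in the 9 E6.5 WT epiblasts and from 2.87 to 131.4 with a median of 89.7 in the 9 E7.5 WT epiblasts, and 8 of these were above every E6.5 library. Its log2 fold change was 4.31 ± 0.47 (SE, adjusted p = 1.03e-05). *Peg3* went from 162.3 to 692.3 CPM (median 234.4) to 350.8 to 1947 CPM (median 1786), a log2 fold change of 2.50 ± 0.32 (adjusted p = 4.8e-05). *Usp29*, which starts beside it, went from a median of 3.27 CPM (2.36 to 11.8) to 23.98 CPM (6.003 to 31.96), with a log2 fold change of 2.21 ± 0.34 (adjusted p = 9.72e-05). Here too the E7.5 range began at WT 3, and the other E7.5 libraries lay above every E6.5 library for *Peg3* and *Usp29*.

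*Nnat* rose with the smallest p. It was 6.195 to 15.3 CPM with a median of 10.1 at E6.5 and 14.9 to 51.8 with a median of 41.6 at E7.5, a log2 fold change of 1.81 ± 0.20 (adjusted p = 6.41e-06). Only WT 3 at E7.5 fell within the E6.5 range. *Cdkn1c*, which holds cells out of the cell cycle, went from 9.04 to 46.4 CPM (median 12.9) to 14.3 to 116.9 CPM (median 83.0), a log2 fold change of 2.2 ± 0.38 (adjusted p = 0.000411). *Ndn*, which encodes the growth suppressor necdin, went from a median of 10.1 CPM (6.30 to 20.5) to 25.2 (18.0 to 38.7), and *Sgce*, which encodes a membrane glycoprotein, from 1.36 (0.51 to 9.85) to 14.6 (2.92 to 18.6).

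The *Igf2-H19* pair rose together. *Igf2* was 7.52 to 98.7 CPM with a median of 16.2 in E6.5 WT and 10.7 to 679.6 with a median of 302.9 in E7.5 WT epiblasts, with a log2 fold change of 3.53 ± 0.67 (adjusted p = 0.00107). *H19* was 71.2 to 999.5 CPM (median 163.9) and 93.3 to 1928 CPM (median 956.4), with a log2 fold change of 1.95 ± 0.58 (adjusted p = 0.0207). Both were highest at E6.5 in WT 3 and lowest at E7.5 in WT 3, so the ranges overlapped. *Igf2* shares 62.8% of its exon bases with *Gm49394* on the same strand, and its counts cannot be fully separated from that gene.

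*Peg10*, a retrotransposon-derived gene needed for the placenta, went from 20.4 to 396.1 CPM (median 31.7) to 47.7 to 828.1 CPM (median 492.4), a log2 fold change of 2.47 ± 0.63 (adjusted p = 0.00824). *Dlk1*, a Notch-related ligand, stayed low at E6.5 (1.15 to 11.9 CPM, median 2.76) and spread widely at E7.5 (2.85 to 57.2, median 17.6), a log2 fold change of 2.75 ± 0.64 (adjusted p = 0.00383). *Plagl1*, a zinc finger gene that acts on other imprinted genes, went from a median of 1.35 CPM (0.22 to 3.77) to 10.6 (1.16 to 26.3). *Airn*, the noncoding RNA that silences the paternal *Igf2r*, went from a median of 0.21 CPM (0.06 to 0.78) to 2.97 (0.10 to 8.0), and *Slc38a4*, an amino acid transporter gene, from 21.1 (7.72 to 24.7) to 57.9 (22.9 to 77.1). Adjusted p ranged from 7.25e-05 to 0.00265 for *Airn*, *Sgce*, *Ndn*, *Plagl1* and *Slc38a4*.

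**Figure D2:**
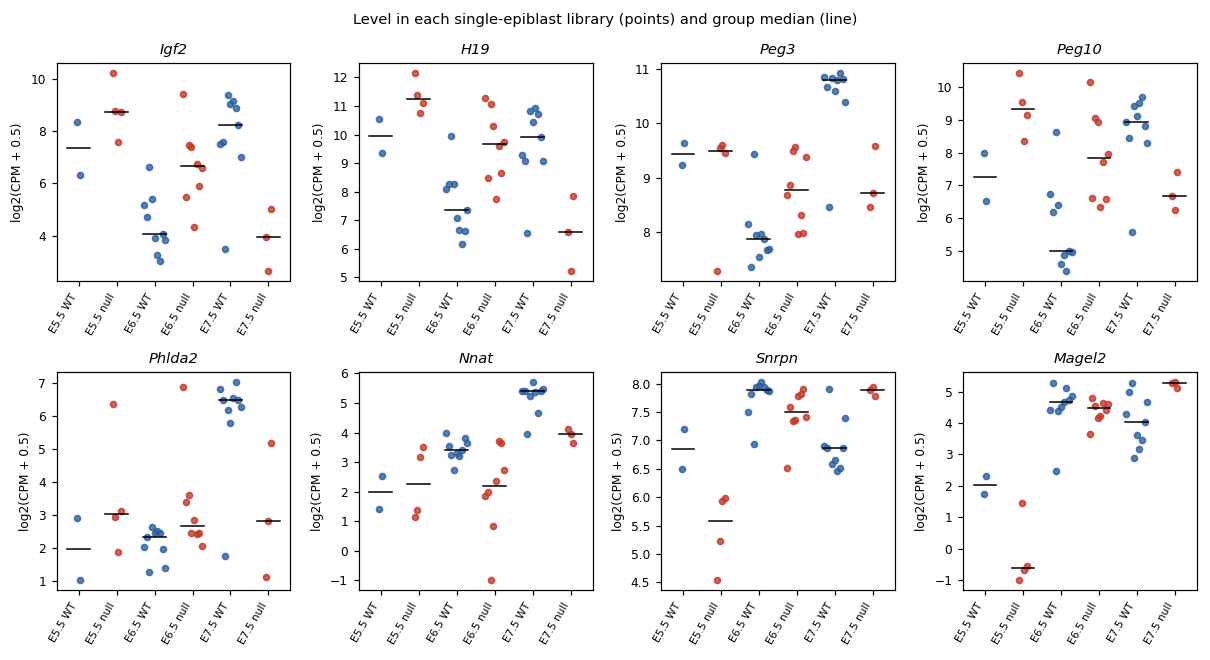
CPM of 8 imprinted genes on a log2(CPM + 0.5) axis, 1 point per epiblast library (blue WT, red null) with the group median as a line. In *Peg3*, E7.5 WT libraries except WT 3 lie between 1350 and 1947 CPM, above every other library, and in *Nnat* they lie between 24.6 and 51.8 CPM.

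The noncoding RNAs of chromosome 12 did not move with them. *Meg3* was 324.6 to 715.3 CPM (median 354.6) in E6.5 WT and 261.4 to 424.0 (median 333.7) in E7.5 WT epiblasts (log2 fold change -0.40, adjusted p = 0.0725). *Rian*, *Mirg* and *Rtl1* had log2 fold changes of -0.12, -0.24 and -0.25, none of which passed. *Snrpn* and *Grb10* passed the adjusted p but not the fold, at -0.84 (adjusted p = 0.00252) and 0.90 (adjusted p = 3.9e-05): *Snrpn* went from a median of 235.5 to 115.9 CPM and *Grb10* from 371.3 to 716.8 CPM. Reads on *Snrpn* overlap *Gm38393* on the same strand over 27.3% of its exon bases.

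Markers of other tissues moved with this comparison. The summed visceral endoderm list was 90.1 to 6125 CPM in E6.5 WT and 467.8 to 4615 CPM in E7.5 WT epiblasts, the extraembryonic ectoderm list 5.03 to 21.9 and 5.23 to 22.8 CPM, and the mesoderm list 19.6 to 209.8 and 27.2 to 800.2 CPM. All 12 visceral endoderm genes had log2 fold changes above 0, and 3 were called. At E7.5, *Igf2* was lowest (10.7 CPM) in WT 3, which had the lowest list sum, and over 470 CPM in WT 4, 5, 6 and 7, which had the highest. With libraries over 1000 CPM of that list or over 100 CPM of the ectoderm list left out (7 E6.5 WT libraries and E7.5 WT 2, 3 and 9 kept), 6 genes remained called (*Peg3*, *Usp29*, *Sgce*, *Cdkn1c*, *Phlda2* and *Nnat*) against 2.38% of all genes, and *Igf2*, *H19* and *Dlk1* were not (log2 fold changes 2.56, 1.18 and 0.45, adjusted p from 0.091 to 0.62). With only the E6.5 libraries over 40000000 counts (WT 1, 2 and 3), 9 genes were called. *Igf2*, *H19* and *Dlk1* were not among them (adjusted p = 0.0985, 0.425 and 0.231 by edgeR). This small group includes WT 3, the highest E6.5 WT library for *Igf2* and *H19*, and its share of all genes called is not given here. In bulk RNA, more cells that express a gene and more RNA per cell cannot be told apart. The part of these markers in the changes was not tested.

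**Figure D3:**
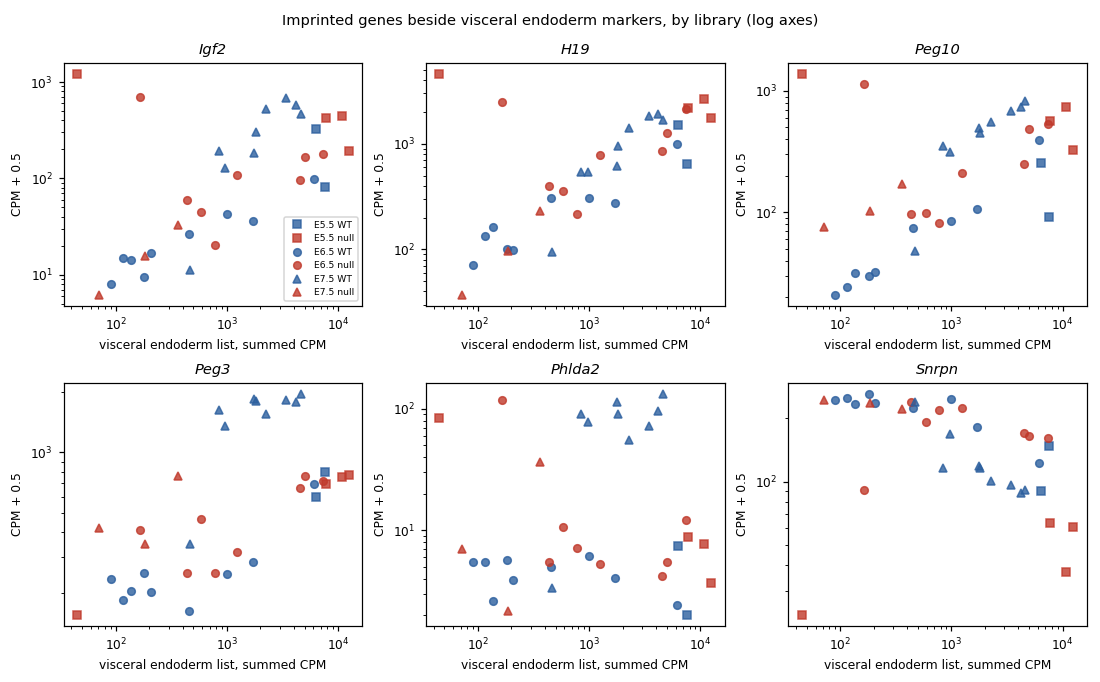
CPM + 0.5 of 6 imprinted genes against the summed CPM of 12 visceral endoderm markers, 1 point per epiblast library on log axes (squares E5.5, circles E6.5, triangles E7.5; blue WT, red null). *Igf2* is at 470.4 to 679.6 CPM in E7.5 WT 4 to 7 (2265 to 4615 CPM of the list) and at 10.66 CPM in E7.5 WT 3 (467.8 CPM of the list), and the points at upper left in *H19* are E5.5 null 1 (45.01 CPM of the list, 4561 CPM of *H19*) and E6.5 null 1 (163.8 and 2462 CPM).

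From E5.5 to E6.5, WT epiblasts showed 2 of 34 imprinted genes called, *Magel2* and *Nnat*, both higher (5.15% of 20763 genes were called, and 2.52% called higher). *Magel2* was at 2.84 and 4.45 CPM in the 2 E5.5 epiblasts and at 5.05 to 38.4 CPM (median 25.2) in the 9 E6.5 epiblasts, above both in every library, with a log2 fold change of 2.77 ± 0.59 (adjusted p = 0.012). *Nnat* was at 2.18 and 5.31 CPM and then at 6.195 to 15.3 CPM, again without overlap, with a log2 fold change of 1.52 ± 0.42 (adjusted p = 0.036). Groups did not overlap for 6 of the 34 genes, all higher at E6.5, against 16.9% of all genes and 8.36% higher. *Igf2* was lower at E6.5 by log2 fold change, -2.79 ± 0.79, and *H19* by -1.98 ± 0.81, with adjusted p = 0.0564 and 0.177. *Igf2* was at 325.7 and 80.5 CPM in E5.5 WT epiblasts, and *H19* at 1506 and 645.9 CPM. Without E6.5 WT 3, which is high in both, 8 genes were called, *Igf2* and *H19* among those lower, while without E5.5 WT 1, which leaves a lone E5.5 library assumed to vary like the others, none were. Calls over all genes also moved with the library left out, and the share without E6.5 WT 3 is not given here. The 8 is therefore not a result about these genes alone. *Nnat* stayed called in 4 of the 11 fits that left out 1 library, and *Magel2* in 9. With only the E6.5 libraries over 40000000 counts neither was called (adjusted p = 0.403 for *Magel2* and 0.404 for *Nnat* by edgeR). Markers moved with this stage as well. Of 12 visceral endoderm genes 11 had log2 fold changes below 0 (median -2.54, none called), as had 8 of 8 extraembryonic ectoderm genes (median -3.77, 1 called), while 7 of 8 epiblast genes were above 0 (median 0.80, 2 called). Their part in the changes was not tested.

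In null epiblasts, 2 of 33 genes were called between E5.5 and E6.5, *Snrpn* and *Magel2*, both higher (1.98% of 18352 genes were called, and 1.22% called higher). *Magel2* was at 0, 2.26, 0.13 and 0.18 CPM in E5.5 null epiblasts 1 to 4 and at 12.1 to 27.3 CPM (median 21.7) in the 8 E6.5 null epiblasts, without overlap (log2 fold change 5.06 ± 1.0, adjusted p = 0.0151). *Snrpn* was at 22.7, 36.8, 60.5 and 63.0 CPM and then at 91.0 to 239.8 CPM (median 181.6), also without overlap (log2 fold change 1.98 ± 0.30, adjusted p = 0.00464). Groups did not overlap for 3 of the 33 genes, all higher, against 5.31% of all genes and 3.24% higher. Depth at E6.5 fell into 2 classes, and with only the E6.5 libraries over 40000000 counts neither gene was called (adjusted p = 0.274 and 0.318), whereas both were with those under 40000000. DESeq2 called *Snrpn* but not *Magel2*. Of the markers, 10 of 12 visceral endoderm genes had log2 fold changes below 0 (median -1.41, none called) and 8 of 8 epiblast genes above 0 (median 1.37, 1 called). Without E5.5 null 1 and E6.5 null 1, which stand apart, *Snrpn* and *Magel2* stayed called (log2 fold changes 1.89 and 4.74). The part of the markers was not tested.

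From E6.5 to E7.5, null epiblasts had no imprinted gene called by edgeR among 33 tested, against 0.103% of 19460 genes. At an unadjusted p under 0.05 there were 6, against 1582 of all genes. DESeq2 called 2, *Igf2* and *H19*, both lower, for which the edgeR share is not the background. *Igf2* was at 19.8 to 697.6 CPM (median 101.3) in the 8 E6.5 null and at 15.1, 5.71 and 31.9 CPM in the 3 E7.5 null epiblasts. *H19* was at 214.2 to 2462 CPM (median 820.6) and then at 96.2, 36.7 and 231.5 CPM. For both genes the E7.5 values overlapped the E6.5 range. Groups did not overlap for 4 of the 33 genes (*Magel2*, *Grb10* and *Gnas* higher, *Kcnq1ot1* lower), against 6.10% of all genes, 4.15% higher and 1.95% lower. The log2 fold changes of *Igf2* and *H19* were -3.31 ± 1.15 and -3.15 ± 0.92 (adjusted p = 0.442 and 0.331 by edgeR). All 12 visceral endoderm and all 6 extraembryonic ectoderm markers tested had log2 fold changes below 0 (medians -3.52 and -2.96), none called. Without libraries high in these markers, 3 E6.5 and 3 E7.5 null epiblasts were kept. *Igf2* and *H19* then had log2 fold changes of -1.25 and -1.43 (edgeR, adjusted p = 0.622 and 0.522). Whether the markers had a part in these changes was not tested.

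The change between these stages was set against that of WT in one fit of all 35 libraries. The difference, null minus WT, passed for *Igf2* (log2 -6.83 ± 1.45, adjusted p = 0.0361) and *H19* (log2 -5.09 ± 1.14, adjusted p = 0.0467), both lower, which are 2 of 34 imprinted genes against 0.245% of 24126 genes and 0.170% lower. Without libraries high in extraembryonic markers neither passed, with differences of -3.81 and -2.61 (adjusted p = 0.72 and 0.746). *Peg3*, *Peg10*, *Cdkn1c* and *Phlda2* had differences of -2.42, -4.13, -2.51 and -4.81 with adjusted p between 0.0728 and 0.12. With 1 library left out, *Igf2* stayed called in 23 of 35 fits and *H19* in 9. Neither was called without E6.5 null 4, E6.5 WT 2, 5, 8 or 9, E7.5 WT 4, 5, 6 or 7, or any of the 3 E7.5 null epiblasts. Without E6.5 WT 3 and E7.5 WT 3, 7 and 6 imprinted genes were called. The number of all genes called moved with the library left out as well, and its share in those fits is not given here. The 7 and 6 are therefore not results about these genes alone. Over the same libraries the visceral endoderm list had 12 of 12 differences below 0, none called. Its part in the result was not tested.

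Between null and WT epiblasts at E7.5, 1 of 34 imprinted genes was called, *Nnat*, lower in null, against 1.17% of 19680 genes and 1.09% lower. *Nnat* was at 16.7, 15.02 and 12.0 CPM in E7.5 null epiblasts 1 to 3, against 14.9 to 51.8 CPM in WT, and only WT 3 (14.9) lay within the null range (log2 fold change -1.34 ± 0.29, adjusted p = 0.0353). Of the 34 genes 30 had a log2 fold change below 0, against 10201 of all 19680 genes, with a median of -0.84 against -0.0197. At an unadjusted p under 0.05 there were 21 of the 34, against 3874 of all genes. With *Slc22a18* set at its bound the median was the same. *Ndn* alone had groups that did not overlap, at 15.9, 12.4 and 17.4 CPM in null against 18.0 to 38.7 in WT, and such genes made up 3.81% of all genes, 2.11% lower in null. *Slc22a18* was at 0 in all 3 null epiblasts, where 3 counts correspond to at most 0.0808 CPM, and at a mean of 0.90 CPM in WT (0 to 2.57), which is at least 11.15-fold higher.

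*Slc22a18* did not pass either (adjusted p = 0.0542). Other genes that were not called had log2 fold changes below -2, among them *Igf2* (log2 fold change -4.25 ± 1.17, adjusted p = 0.0827), *Airn* (-3.43, adjusted p = 0.0796), *H19* (-3.10 ± 0.95, adjusted p = 0.105), *Dlk1* (-2.88) and *Phlda2* (-2.43). *Peg3* was at 351.1, 421.1 and 765.0 CPM in null epiblasts and *Cdkn1c* at 15.4, 17.5 and 23.4, against medians of 1786 and 83.0 CPM in WT. *Phlda2* was at 1.65, 6.57 and 35.9 CPM in null epiblasts, and *Peg10* at 102.2, 75.4 and 170.9 CPM. *Meg3* was at 344.1, 342.2 and 204.6 CPM in null epiblasts, a log2 fold change of -0.13. In these genes WT 3 lay with the null epiblasts: its *Peg3* was 350.8 CPM, its *Cdkn1c* 14.3 and its *Igf2* 10.7. Without WT 3, 16 of 34 genes were called, 14 lower and 2 higher (*Snrpn* and *Magel2*), against 5.68% of genes, and *Nnat* stayed called (log2 fold change -1.45, adjusted p = 0.000139). The *Nnat* call was kept without WT 3 or WT 7 and lost when any other of the 12 libraries was left out (adjusted p from 0.0523 to 0.165).

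The markers moved with genotype as well. At E7.5 the visceral endoderm list summed to 71.4 to 360.9 CPM in null and 467.8 to 4615 CPM in WT epiblasts, without overlap, and 12 of 12 of its genes had a log2 fold change below 0, with *Afp* and *Sox17* called. The mesoderm list summed to 112.4 to 460.5 CPM in null and 27.2 to 800.2 CPM in WT, and the epiblast list to 1159 to 1594 and 306.4 to 1537 CPM. With the WT libraries over 1000 CPM of the visceral endoderm list left out, 3 WT libraries (2, 3 and 9) remained and no gene of the 34 was called. One of them, WT 3, stands apart. *Nnat* and *Igf2* kept log2 fold changes of -1.20 and -2.63 (adjusted p = 0.897 for both by edgeR). With so few libraries, a lost call does not show that a difference was absent. The part of the markers in the difference was not tested.

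**Figure D4:**
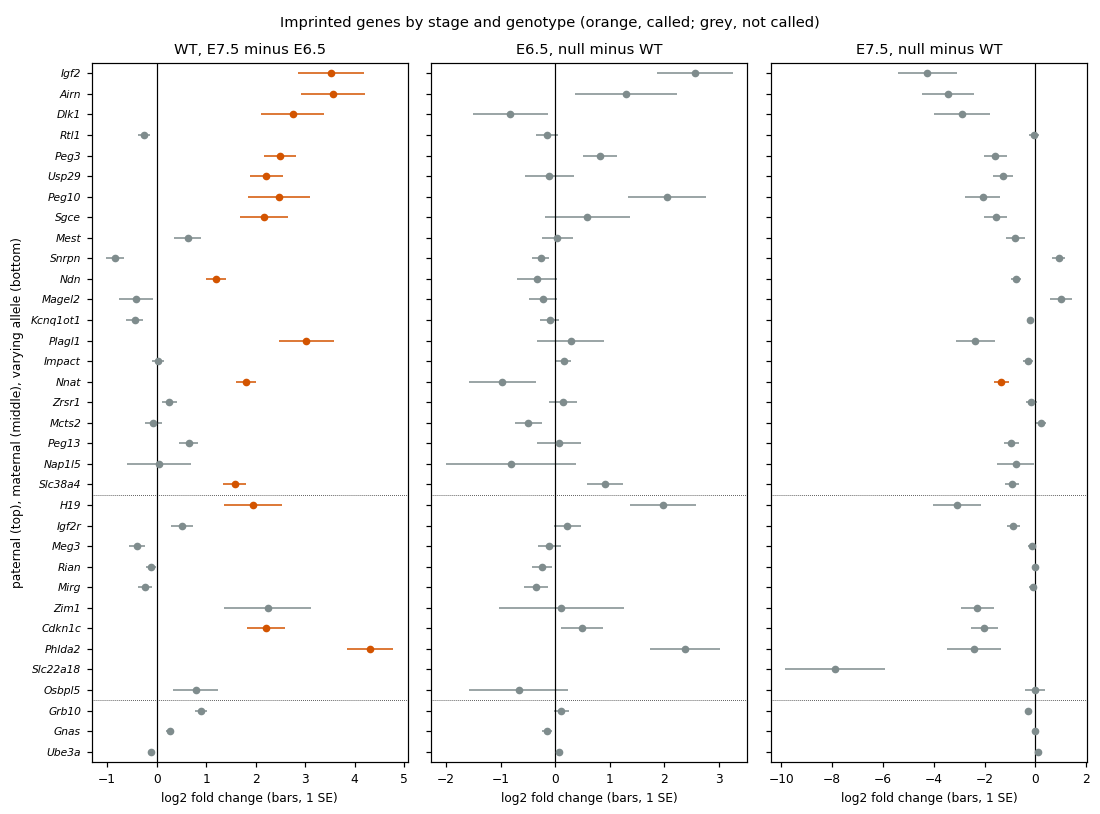
Log2 fold changes (points, with bars of 1 SE) of the imprinted genes for WT E7.5 minus E6.5, and null minus WT at E6.5 and E7.5, by parental allele (orange, called; grey, not called). In the left panel 14 points are orange and to the right of 1, in the middle none, and in the right panel *Nnat* alone; the point of *Slc22a18* at the far left comes from 3 null libraries at 0.

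Null and WT epiblasts of E6.5 or E5.5 had no imprinted gene that passed the test. At E6.5, 33 genes were tested and edgeR called none, against 0 of 17095 genes (0.00%). At an unadjusted p under 0.05 there were 6, against 1414 of all genes. DESeq2 called 1 (*Igf2*), for which the edgeR share is not the background. Groups did not overlap for 0 of the 33 genes, against 0.0643% of all genes. *Igf2*, *H19*, *Peg10* and *Phlda2* were higher in null by log2 fold changes of 2.56 ± 0.69, 1.97 ± 0.60, 2.04 ± 0.71 and 2.37 ± 0.64, with adjusted p between 0.358 and 0.442. The highest values came from few epiblasts. *H19* was at 2462, 2152 and 1265 CPM in null 1, 3 and 4 and at 214.2 to 862.2 CPM in the other 5. *Phlda2* was at 117.6 CPM in null 1 and 3.68 to 11.6 CPM in the other null epiblasts. The medians also differed, at 820.6 CPM in null against 163.9 in WT for *H19*. They were 101.3 against 16.2 CPM for *Igf2* and 230.1 against 31.7 for *Peg10*, but 5.84 against 4.52 for *Phlda2*. All 12 visceral endoderm markers and all 5 extraembryonic ectoderm markers tested had log2 fold changes above 0, none called. Null 1 stood out in extraembryonic ectoderm markers (671 CPM), and null 3, 4 and 8 in visceral endoderm markers (7387, 5000 and 4520 CPM). Without the libraries high in these markers (3 null and 7 WT kept), the log2 fold changes were 1.18, 0.95, 1.14 and 0.72.

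At E5.5, 32 genes were tested and none was called by edgeR, against 0 of 18690 genes (0.00%). An unadjusted p under 0.05 was found for 4 (467 of all genes), and DESeq2 also called none. Groups did not overlap for 5 of the 32, 3 higher in null (*H19*, *Peg10* and *Sgce*) and 2 lower (*Snrpn* and *Magel2*), against 11.7% of all genes, 4.63% higher and 7.11% lower. *H19* was at 4561, 2641, 1738 and 2197 CPM in null 1 to 4 and at 1506 and 645.9 CPM in WT, and *Peg10* at 1377, 741.8, 327.6 and 560.5 CPM against 255.8 and 91.3. Null 1 had the highest value of both genes and the lowest of *Peg3*, 154.9 CPM against 697.3 to 773.4 in the other null epiblasts. *Snrpn* was lower in null without overlap, at 22.7 to 63.0 CPM against 89.5 and 147.3 CPM. Of the markers, 8 of 8 epiblast genes had log2 fold changes below 0 (median -0.69). Above 0 were 5 of 8 extraembryonic ectoderm genes (median 1.01) and 7 of 12 visceral endoderm genes (median 0.065). None of these markers was called, and their part in the differences was not tested.

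In EpiSCs edgeR called no imprinted gene among 34 tested, against 0.106% of 20736 genes. At an unadjusted p under 0.05 there were 10, against 1885 of all genes. DESeq2 called 1 (*Zim1*). A call of *Mest* by edgeR without null line 6 rested on a lone null line assumed to vary like the WT lines. The 0.106% is not the background of those calls. *Stat3* was at 3.15 and 3.50 CPM in null lines 2 and 6 and at 18.2 and 22.8 CPM in WT lines 8 and 13. With 2 lines a side, 19 of the 34 genes did not overlap between genotypes, 2 higher and 17 lower in null, against 39.3% of all genes, 18.4% higher and 20.9% lower. *Zim1*, a zinc finger gene of the *Peg3* cluster, was at 0.33 and 0.37 CPM in null and 1.48 and 1.40 CPM in WT (log2 fold change -2.04 ± 0.35, adjusted p = 0.121). *Kcnq1ot1* was at 1.85 and 4.96 CPM in null and 13 and 21.7 CPM in WT (log2 fold change -2.34 ± 0.60, adjusted p = 0.407). In both genes each null line lay below each WT line.

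*Igf2* was at 30.9 and 27.3 CPM in null EpiSC lines 2 and 6 and at 43.3 and 53.1 CPM in WT lines 8 and 13 (log2 fold change -0.73 ± 0.13, adjusted p = 0.125), *H19* at 3.68 and 3.24 against 9.22 and 4.26 CPM, *Peg10* at 38.0 and 62.5 against 86.5 and 121.9, and *Cdkn1c* at 10.4 and 27.4 against 31.6 and 17.9. For *Igf2*, *H19* and *Peg10* both null lines were below both WT lines, and *Cdkn1c* overlapped. *Dlk1* was at 1.14 and 1.98 CPM in null against 2.41 and 1.05 in WT, and *Meg3* at 539.7 and 444.0 against 471.7 and 405.8 CPM, both overlapping. EpiSC and epiblast libraries were made with different kits, so their levels were not tested against each other: *H19* stood at 3.24 to 9.22 CPM in EpiSCs and 36.7 to 4561 CPM in epiblasts, and *Kcnq1ot1* at 1.85 to 21.7 and 192.5 to 644.5 CPM, whereas *Rian* was at 561.9 to 795.4 CPM in EpiSCs and 165.6 to 546.8 in epiblasts.

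**Figure D5:**
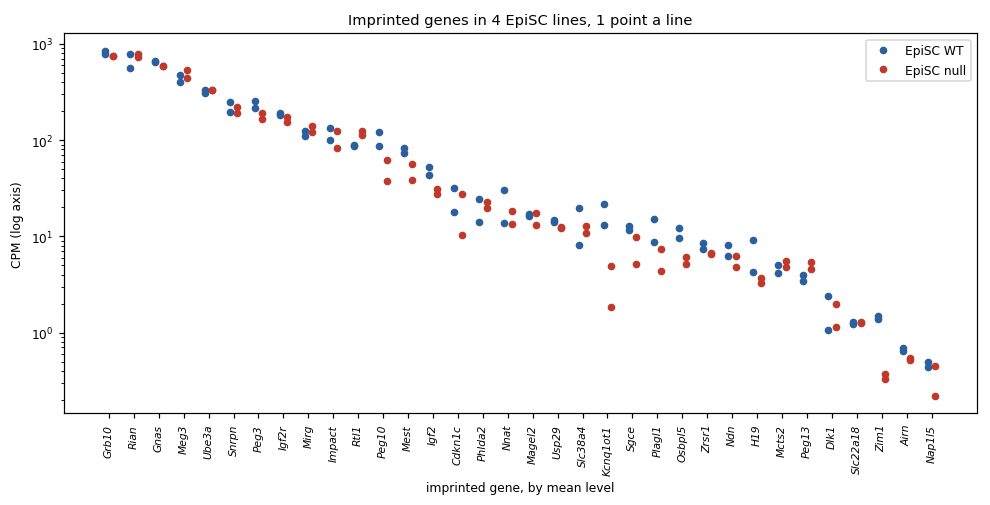
CPM on a log axis of the 34 imprinted genes in the 4 EpiSC lines, ordered by mean level (blue WT lines 8 and 13, red null lines 2 and 6). *Zim1* and *Kcnq1ot1* show the widest gap between null and WT points, and *Meg3* and *Magel2* points overlap.

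The other genes of the imprinting machinery and 44 further imprinted genes were examined beside these. In WT from E6.5 to E7.5, 5 of 17 regulators tested were called, against the 8.83% of all genes: the de novo methyltransferases *Dnmt3a* (log2 fold change -1.1), *Dnmt3b* (-1.41) and their cofactor *Dnmt3l* (-4.57) and the methylcytosine dioxygenase *Tet1* (-1.17) fell, and *Tet2* rose (1.26), with adjusted p between 7.08e-05 and 0.0044. *Dnmt3b* had a mean of 4820 CPM at E6.5 and 1839 CPM at E7.5. Of 30 further imprinted genes tested, 6 rose and 1 fell, against 5.74% of all genes called higher and 8.83% in either direction: *Atp10a* fell by 1.33 on the log2 scale, and *Phactr2*, *Asb4*, *Smoc1*, *Pon2* and *Rasgrf1* rose by log2 fold changes of 1.82, 3.74, 1.90, 1.82 and 2.03. From E5.5 to E6.5 in WT, *Zfp57* fell by 1.37 on the log2 scale and *Tet2* by 1.66 among 18 regulators tested, and *Sfmbt2* and *Smoc1* fell among 35 further imprinted genes, where 5.15% of all genes were called. In null epiblasts over that interval *Dnmt3b* rose (log2 fold change 1.13, adjusted p = 0.0313) and *Zfp264* fell by 2.25 among 18 regulators and 33 further genes, where 1.98% of all genes were called. None of these regulators or further genes was called between null and WT at any stage or in EpiSCs, nor in the difference between the stage changes, where at E7.5 17 and 36 were tested with 6 and 11 at an unadjusted p under 0.05, as were 3874 of all 19680 genes.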

How the data were processed

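RNA-seq of 35 single epiblasts (SMARTer Stranded Total RNA-Seq kit v2) and 4 EpiSC lines (ribosomal depletion, NEBNext Ultra II) was analysed. Per the labels and the study's methods, the authors trimmed reads with Trim Galore, aligned them with HISAT2 2.2.1 to GRCm38 and made gene counts with StringTie 2.1.4; the deposited values are raw counts per gene, without normalization. The annotation release and strand setting are not given in the sources used here, so overlapping genes cannot be fully separated. Positions and exon lengths came from GENCODE vM21, in which 39106 of 47643 rows carry the same gene version.

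Groups came from the sample labels. Nothing links libraries as litters, so p-values measure the spread between epiblasts or lines. Tests used edgeR 4.0.16 under R 4.3.3 (TMM scaling, filterByExpr with minimum count 10 and minimum total count 15, robust quasi-likelihood dispersions, two-sided, Benjamini-Hochberg over all genes), within the groups compared, or in all 35 libraries for the difference between stage changes. SE is the log2 fold change over the square root of F. Calls needed an absolute log2 fold change over 1 and adjusted p under 0.05. The main edgeR fit of each comparison was also run on simulated counts with known changes, whose outcome is not given here. The alternative fits were not simulated. DESeq2 1.42.0, RLE scaling, other filters, dropping genes above 1% of counts, non-robust dispersions, a pooled fit, depth classes, the replicate block and each library left out were alternatives. No library duplicated another (highest correlation 0.985). BLAST 2.17.0 found near-identical transcripts (95% identity over 50% and 200 bases) outside overlapping genes for *Meg3* alone (*Gm27000*). Values in each library are given for genes called in any comparison and for *Igf2*, *H19*, *Dlk1*, *Meg3*, *Cdkn1c* and *Peg10*; other genes of the 34 are given by range and count, or where singled out after their values were seen. Up to 6 regulators and further imprinted genes called in a comparison are named by smallest p. The members, lists, markers and comparisons were chosen with earlier results of these data known. Figures used matplotlib 3.10.9.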

Additional observations from a re-analysis of the deposited data

Results flagged for a closer look

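Of 135 sets of values (a gene in a group of 4, 8 or 9 libraries), 21 had a library further from the rest than Dixon's test allows, where chance gives about 1 in 20, and 10 of the 21 were in E7.5 WT 3. That library was the lowest of its group for *Igf2* (10.7 CPM), *H19* (93.3), *Peg3* (350.8), *Usp29* (6.003), *Zim1* (0.78), *Peg10* (47.7), *Sgce* (2.92), *Cdkn1c* (14.3), *Phlda2* (2.87) and *Slc38a4* (22.9). E6.5 WT 3 was the highest for *Peg3* (692.3 CPM) and *Cdkn1c* (46.4) and the lowest for *Snrpn* (121.9) and *Magel2* (5.05). E6.5 null 1 was the highest for *Phlda2* (117.6 CPM) and the lowest for *Snrpn* (91.0), and E5.5 null 1 the lowest for *Peg3* (154.9). Single flags fell on *Ndn* in E6.5 null 3 (0.84 CPM), *Slc22a18* in E6.5 null 5 (1.55) and E6.5 WT 4 (0.89), and *Impact* in E7.5 WT 2 (15.35).

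The change from E6.5 to E7.5 differed between null and WT for *Igf2* (log2 -6.83, adjusted p = 0.0361 by edgeR) and *H19* (log2 -5.09, adjusted p = 0.0467), by a test of the difference itself. Without the libraries high in extraembryonic markers neither passed (adjusted p = 0.72 and 0.746), and with 1 library left out *Igf2* stayed called in 23 and *H19* in 9 of 35 fits.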

How the results depend on the processing

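For WT E7.5 against E6.5, 14 genes were called under 7 alternatives, 12 under the replicate block, 15 with E6.5 libraries under 40000000 counts and 18 without the libraries that stand apart; 9 were called with E6.5 libraries over 40000000 counts and 6 without libraries high in extraembryonic markers. *Peg3*, *Usp29*, *Phlda2* and *Nnat* stayed called in all 30 alternatives. Leaving out libraries that stand apart or are high in markers, and ordering levels per kilobase by the median, were chosen after seeing the data.

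For WT E6.5 against E5.5 (2 called), DESeq2 called 6, fits without the robust option 4, the replicate block and the fit of all 35 libraries 0, E6.5 libraries under and over 40000000 counts 10 and 0, and the fit without E6.5 WT 3, which stands apart, 8. For null E6.5 against E5.5 (2), DESeq2 called 1 (*Snrpn*), the block 0, all 35 libraries 4, and the depth classes 7 and 0. For null E7.5 against E6.5 (0), DESeq2 called 2, and at E6.5 null against WT (0) it called 1. At E7.5 (1), DESeq2 called 13, fits without the robust option 3, the block and all 35 libraries 0, the fit without WT 3 16, and without marker-high libraries 0. In EpiSCs (0) DESeq2 called 1. For the difference in stage changes (2), DESeq2 called 10, no filter 1, the replicate block 2, the depth classes 8 and 0, without the libraries standing apart 10, and without marker-high libraries 0. Calls over all genes moved between fits too. With 1 library left out they ran from 0 to 1105 for null against WT at E7.5. For WT E7.5 against E6.5 they ran from 1363 to 1902. Except where stated above, the share of all genes is not given for these alternatives. The counts therefore describe the fits and are not results about these genes. The cause of these moves was not tested.

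With each library left out in turn, counts ranged from 0 to 8 (WT E6.5 against E5.5, 8 without E6.5 WT 3 and 0 without E5.5 WT 1), 14 to 17 (WT E7.5 against E6.5), 2 to 5 (null E6.5 against E5.5, 5 without E6.5 null 1), 0 to 0 (null E7.5 against E6.5, and null against WT at E5.5 and E6.5), 0 to 16 (E7.5, 16 without WT 3 and 0 without 10 of the other 11), 0 to 1 (EpiSCs, 1 without null line 6) and 0 to 7 (difference in stage changes, 7 without E6.5 WT 3). *Slc38a4* in WT E6.5 against E5.5 changed sign without E5.5 WT 1 (log2 0.31, against -1.965 without E5.5 WT 2, each leaving a lone E5.5 WT library assumed to vary like the others). Leaving out genes over 1% of counts moved mean CPM beyond 1 SD for *Meg3* in E5.5 WT (476.2), *Igf2* in EpiSC null (33.6) and WT (55.43), *H19* in EpiSC null (3.99) and *Meg3* in EpiSC null (567.4) and WT (504.5). In EpiSCs no paired analysis was possible because null and WT lines share no numbers. In epiblasts the replicate block was fitted as above, but the numbers gave no clear pairing (5 of 13 correlations over 0.1, from -0.26 to 0.22). Correlations between libraries of different numbers were not computed for reference, so this check cannot show that pairing was absent. Low counts, such as those of *Slc22a18* and *Airn*, limit what can be seen at these depths.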
